A study of Mus musculus with 16 samples.

Results

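The mitochondrial genome of the mouse carries 37 genes whose symbols start with mt-, and all of them were taken as the mitochondrially encoded genes described here. They are 37 of the 51912 genes in the count table, and comprise 13 protein-coding genes, 2 rRNA genes and 22 tRNA genes. Bulk mRNA-Seq had been performed on group 2 innate lymphoid cells (ILC2s) sorted from the lungs of mice of 6 to 8 weeks. ILC2s of WT or Pac1-/- mice, the latter on a C57BL/6J background and lacking the phosphatase PAC1 that Dusp2 encodes, were stimulated for 4 hours. The paper's culture method, which gives the doses, has sorted ILC2s first expanded with IL-2 and IL-7, both removed before the stimuli were added. All groups received IL-7 at 100 ng/mL. IL-7 alone was the basal condition, and the other groups also received IL-33 at 100 ng/mL, IL-33 with CGRP at 500 ng/mL, or IL-33 with NMU at 500 ng/mL. This gave 8 groups of 2 libraries, 16 in all, each made from about 500 cells. IL-33 is an alarmin that activates ILC2s, CGRP is a neuropeptide that restrains them, and NMU is a neuropeptide that activates them. Below, "IL-33", "CGRP" and "NMU" stand for the groups that received them on top of IL-7, and CGRP and NMU on top of IL-7 and IL-33.

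The protein-coding genes specify core subunits of the respiratory chain and of ATP synthase, and the rRNAs and tRNAs serve the ribosomes that translate them inside the organelle. Both strands of the circular genome are transcribed as long precursors, which are cut mostly at the tRNAs that lie between the other genes, and most mitochondrial mRNAs then receive a short poly(A) tail. Mitochondrial sequence has also been copied into the nuclear chromosomes during evolution, so some reads match both places. The share of reads from mitochondrial genes is a common measure of library and cell state in RNA-Seq, and as a share it also moves when RNA of nuclear genes rises or falls.

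The 37 genes lay on chrM of the mm10 (GRCm38) build between bases 1 and 15422, 9 of them on the minus strand, and each was annotated as a gene of its own without introns. Several neighbours overlap. The end of mt-Atp8 and the start of mt-Atp6, which encode subunits of ATP synthase, share 43 bases (capitals, chrM:7909-7969, plus strand), and the end of mt-Nd4l and the start of mt-Nd4, which encode subunits of complex I, share 7 bases (capitals, chrM:10149-10173, plus strand). A read within such an overlap can belong to either gene, and how such reads were counted is not given in the sources used here.

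mt-Atp8 end: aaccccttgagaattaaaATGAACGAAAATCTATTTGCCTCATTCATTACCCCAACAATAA
mt-Nd4l end: aaatctcaacctactacaATGCTAA

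mt-Cytb (chrM:14145-15288), mt-Co3 (chrM:8607-9390) and mt-Nd4 (chrM:10167-11544) end on the lone first base of a stop codon, in capitals in their last 13 bases, which the poly(A) tail completes. mt-Co1 (chrM:5328-6872) carries the stop codon whole, in capitals in its last 15 bases.

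mt-Cytb end: aaattatatccaT
mt-Co3 end: tgatgaggatctT
mt-Nd4 end: ggcctgacaataT
mt-Co1 end: gtaaaagtaaaaTAA

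The genotype comparison below turns on mt-Nd3, a subunit of complex I, and on Gm28438, an unprocessed pseudogene on chromosome 1 that is its nuclear copy. Over the 345 bases they share, a single base differs. The substitution is T3C, with position 3 counted from the first base of mt-Nd3. The first 60 bases of both are shown, with that base in capitals, mt-Nd3 from chrM:9459-9518 on the plus strand and Gm28438 from chr1:24613060-24613119 on the minus strand.

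mt-Nd3: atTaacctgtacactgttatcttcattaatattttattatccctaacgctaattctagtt
Gm28438: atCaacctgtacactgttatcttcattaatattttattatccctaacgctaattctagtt

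The total count per library was 6764992 to 15963357, and 12776 to 16211 genes had at least 1 count. Levels are given in CPM, that is, counts of a library scaled to the same total in each, and 3 counts, taken as the floor of detection, were worth 0.188 to 0.443 CPM. Dusp2, the targeted gene, was at 0 in all 8 Pac1-/- libraries, but also in 6 of the 8 WT libraries, with 57 and 29 counts in the others, so it checked the labels only weakly. The summed level of 12 ILC2 markers was 11480 to 31466 CPM with none at 0. The summed levels of 7 lists for other cell types stayed at or below 336 CPM in every library, which was the highest value of the 6 T cell markers, but some lists lay apart between treatments, as given beside the shares. The labels do not say whether the 2 libraries of a group came from separate mice or cultures, so P values measure the spread between libraries, which may be technical. The IL-33 libraries numbered 2 stood apart from those numbered 1 in their mitochondrial counts. mt-Rnr1 and mt-Rnr2 encode the small and large rRNA of the mitochondrial ribosome, and with IL-33 there were 0.887 (WT) and 1.32 (Pac1-/-) rRNA counts per count of the 13 protein-coding genes in the libraries numbered 2, against 0.543 and 0.389 in those numbered 1. Of the detected genes, mt-Co2 was higher in CPM in the library numbered 2 in all 8 groups, and mt-Co3, mt-Atp6 and mt-Nd4l in 7 of 8 groups each. The other detected genes were higher there in 3 to 6 of 8 groups. How often this holds over all genes was not counted. What the number stands for is not given in the labels.

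Counts in every library were found for 16 of the 37 genes, here named the detected genes, namely the 13 protein-coding genes, mt-Rnr1, mt-Rnr2 and the tRNA gene mt-Tp. The other 21 tRNA genes were at 0 in all libraries. mt-Tp, which encodes the tRNA for proline, had 186 to 1514 counts. It is the last annotated gene of the genome (chrM:15356-15422, minus strand), with no annotated gene beyond it before the end of the sequence. The use of strand in counting is not given, so plus-strand RNA over these bases may be among the counts of mt-Tp. Its 67 bases are printed because it is the only tRNA gene with counts, with in lower case the gene as read from the minus strand.

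mt-Tp: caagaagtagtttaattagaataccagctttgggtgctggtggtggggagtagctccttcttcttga

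Levels per length, in CPM per kb of gene, placed the detected genes in 2 ranges. mt-Rnr2 was highest, with a median over the 16 libraries of 16143 CPM per kb, followed by mt-Cytb (cytochrome b of complex III) at 12200, mt-Rnr1 at 9900, mt-Nd1 at 8392 and mt-Co1 (a catalytic subunit of complex IV) at 7696. The complex I genes mt-Nd2, mt-Nd4, mt-Nd6 and mt-Nd5 had medians of 2861, 2304, 1150 and 979 CPM per kb. The other 6 protein-coding genes lay far lower. mt-Atp6 had a median of 139 CPM per kb, mt-Co2 of 108 and mt-Co3 of 82.8, and mt-Nd3, mt-Atp8 and mt-Nd4l had 30.7, 5.89 and 2.89 CPM per kb. Neighbours in this order of protein-coding and rRNA genes overlapped in their ranges over libraries, for example 5992 to 17883 CPM per kb for mt-Cytb and 4900 to 31623 for mt-Rnr2, except mt-Nd5 (516 to 1353 CPM per kb) and mt-Atp6 (54.8 to 305). mt-Rnr2, mt-Cytb, mt-Co1, mt-Rnr1 and mt-Nd1 together held 85.6% to 90.7% of the mitochondrial counts of each library.

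**Figure D1:**
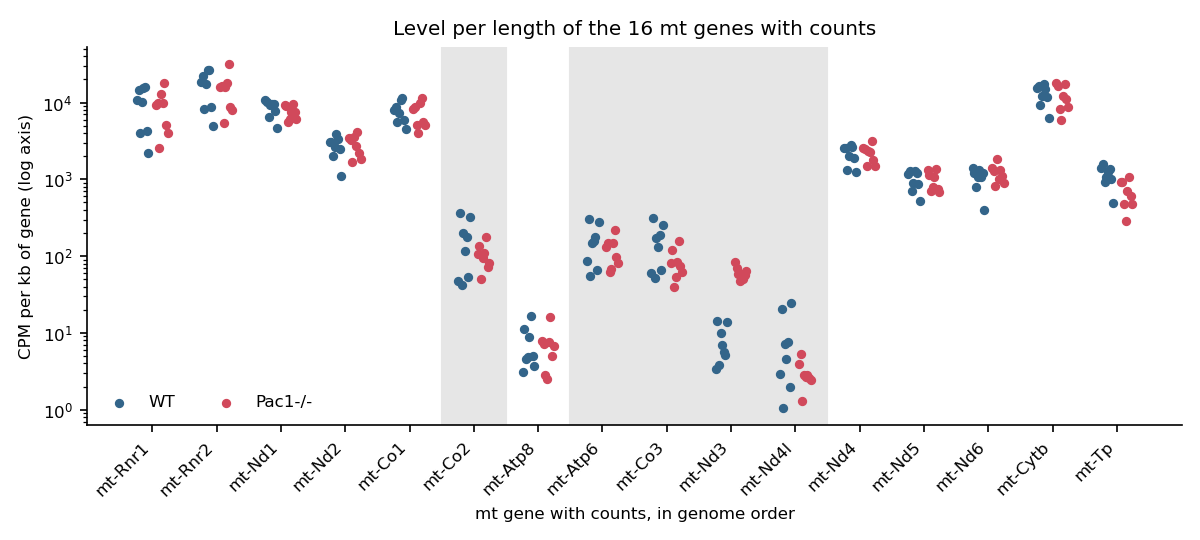
Level per length (CPM per kb of gene, log axis) of the 16 mt genes with counts, in genome order. Each point is a library, WT in blue and Pac1-/- in red, and grey marks genes whose nearly whole length has a copy of over 99% identity on chromosome 1. The 6 genes from mt-Co2 to mt-Nd4l lie below the others, and mt-Nd3 alone separates the genotypes.

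The 6 low genes follow each other on the genome, from mt-Co2 to mt-Nd4l. A search of the annotated transcripts for stretches of at least 95% identity over at least 100 bases found 11 nuclear copies of 9 mitochondrial genes, all of them annotated pseudogenes, and 7 of these copies were over 99% identical. Those 7 lie side by side on the minus strand of chr1:24611535-24616197, and together they span the genome from the last 31.3% of mt-Co1 to the first 63.6% of mt-Nd4. Gm28661, Gm10925, Gm28437 and Gm10222 match mt-Co2, mt-Atp6, mt-Co3 and mt-Nd4l at 100% identity over 99% to 99.9% of their lengths, and Gm28438 matches mt-Nd3 at 99.71%. mt-Atp8 had no annotated copy of its own, but lies between the genes copied as Gm28661 and Gm10925. How reads that match both places were counted is not given in the sources used here, and their part in the low levels was not tested.

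Counts of these pairs were divided between the 2 places. mt-Co2 took 38.0% to 64.8% of the counts of its pair with Gm28661, mt-Co3 14% to 62.0% of its pair with Gm28437, and mt-Nd4l 25% to 66.7% of its pair with Gm10222. mt-Atp6 took 3.36% to 47.5%, since Gm10925 reached 30475 counts in IL-7 Pac1-/- replicate 1 and 14873 in CGRP WT replicate 1 and had 495 to 5318 in the other libraries. Summed with its copy, mt-Co2 had 63.8 to 424 CPM per library, and mt-Co1 without its copy 6204 to 17968 CPM. Reads that match both places may also have been left uncounted, so a sum need not hold all reads of a pair. In contrast, mt-Nd4, which has a copy of part of its length only (Gm28439), held at least 98.4% of the counts of its pair in every library, and mt-Nd5, whose nearest copy Gm4076 is 95.18% identical, held all but at most 1 count.

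The share of all counts that fell on mitochondrial genes differed more between treatments than between genotypes. With IL-7 alone it was 8.99% and 10.2% in the WT libraries and 8.71% and 8.60% in the Pac1-/- libraries. With IL-33 it was 4.83% and 7.96% in WT and 3.94% and 6.58% in Pac1-/-. With CGRP it was 11.4% and 11.1% in WT and 8.30% and 12.6% in Pac1-/-, and with NMU 5.54% and 3.32% in WT and 5.43% and 4.61% in Pac1-/-. Hence all 4 IL-7 and all 4 CGRP libraries lay above all 4 IL-33 and all 4 NMU libraries. Wilson 95% intervals were at most from 12.61% to 12.66% for the largest share, but they cover counting error only, since no molecular identifiers are described and PCR copies are not independent molecules.

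**Figure D2:**
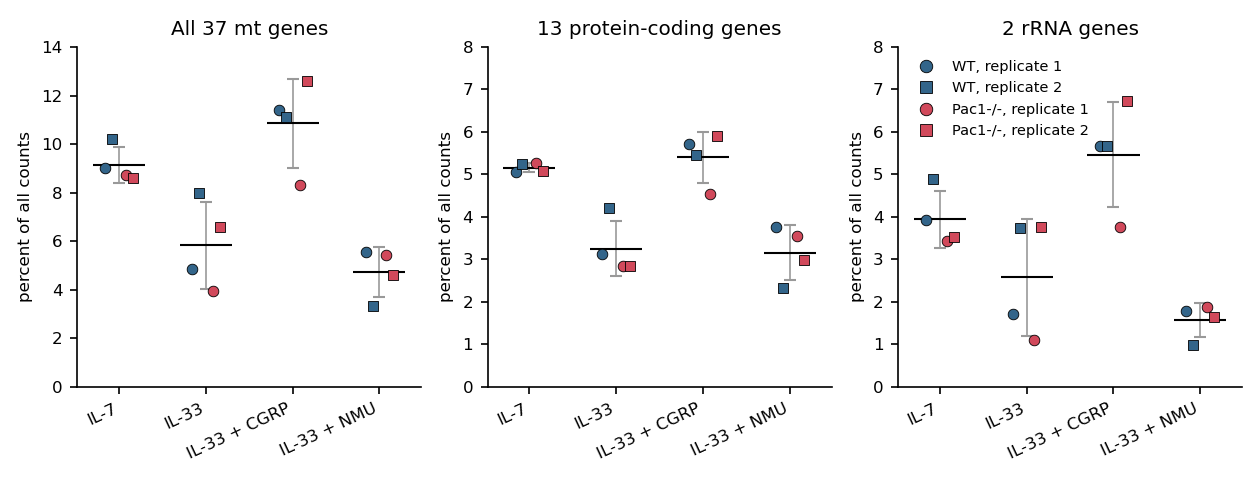
Share of all counts (percent) on all 37 mt genes, the 13 protein-coding genes and the 2 rRNA genes, by treatment. Points are libraries (WT blue, Pac1-/- red, circles replicate 1, squares replicate 2), black lines means and grey bars 1 SD over 4 libraries; the IL-33 and NMU groups lie below the IL-7 and CGRP groups in the left panel, and the IL-33 rRNA shares split by replicate number.

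In the comparison of IL-33 with IL-7, the mean share was 5.83% ± 1.80 (SD, n = 4) against 9.11% ± 0.716 (SD, n = 4). The difference was -3.29 percentage points, lower in 4 of 4 libraries than any IL-7 library (two-sided exact permutation test, P = 0.0286, which is the smallest that 70 arrangements allow, and 0.0571 after Benjamini-Hochberg adjustment over the 4 share comparisons). In the comparison of CGRP with IL-33, the mean was 10.9% ± 1.83 (SD, n = 4) and the difference 5.04 percentage points, 1.87-fold, higher in 4 of 4 libraries than any IL-33 library (exact permutation test, P = 0.0286, adjusted P = 0.0571). NMU gave 4.73% ± 1.03 (SD, n = 4), with a difference from IL-33 of -1.10 percentage points within overlapping ranges (exact permutation test, P = 0.343, adjusted P = 0.443). No share difference thus passed an adjusted threshold of 0.05, and the 3 treatment comparisons use the same IL-33 libraries. In bulk samples, fewer cells of a type and less RNA per cell cannot be told apart, and a share cannot tell less mitochondrial RNA from more nuclear RNA.

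The summed levels of some marker lists of other cell types also lay apart between these groups. The summed level of the 5 epithelial markers was 41.4 to 94.6 CPM in the IL-33 libraries. These values were above the 14 to 40.3 CPM with IL-7 and the 10.8 to 22.8 CPM with CGRP. With NMU the sum was 31.9 to 318 CPM. Sftpb was at 0 in all 16 libraries, Sftpc in 12, Sftpa1 in 10 and Scgb1a1 in 6, so only Epcam had counts in all of them. The 6 T cell markers summed to 230 to 336 CPM with IL-7, above the 45.2 to 175 CPM with IL-33. Cd3g reached 250 CPM and Cd3d 98.4 CPM, while Cd3e and Trac stayed at or below 8.61 and 7.46 CPM. Cd8a was at 0 in 16 libraries and Cd4 in 15. The 4 markers of neutrophils and of mast cells or basophils summed to 76.4 to 163 CPM with CGRP. With IL-33 the sum was lower, at 48.5 to 73.8 CPM. S100a8 was at 0 in all 16 libraries, Mcpt8 in 15 and S100a9 in 13. Mcpt8 and S100a9 stayed at or below 0.452 and 0.546 CPM, so Cpa3, which reached 163 CPM, made up nearly the whole sum. The ILC2 markers ranked the treatments otherwise, with 11480 to 12003 CPM with IL-7, 13359 to 15500 with IL-33 and 21140 to 31466 with NMU. With CGRP they summed to 14916 to 17215 CPM, which overlapped the range with IL-33. The cytokine gene Il5, which is among these markers, alone reached 24700 CPM. The part of these cell types in the mitochondrial shares and fold changes was not tested.

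Between the genotypes, the mean share was 7.35% ± 2.82 in Pac1-/- and 7.92% ± 3.05 in WT libraries (SD, n = 8 each). The difference of -0.565 percentage points was smaller than the spread between libraries (exact permutation test within treatments, 1296 arrangements, P = 0.443, adjusted P = 0.443). Within treatments, the Pac1-/- mean was 8.65% against 9.57% with IL-7, 5.26% against 6.39% with IL-33, 10.5% against 11.3% with CGRP and 5.02% against 4.43% with NMU, with 2 libraries a side, for which a two-sided exact test cannot fall below P = 0.333. No relation between the share and depth was detected across the 16 libraries (Pearson r = -0.0204, permutation P = 0.940, and Spearman rho = 0.0441, permutation P = 0.873, for the total count; r = -0.0815, P = 0.765, and rho = -0.103, P = 0.708, for the number of genes detected; adjusted over the 2 relations P = 0.940 for each r and 0.873 for each rho). Without the 2 libraries farthest from the median on each measure, r was 0.129 and -0.133, and within treatments it was -0.406 and -0.437. For the share of the protein-coding genes alone, r within treatments was -0.193 for the total count and -0.643 for the number of genes detected.

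The 13 protein-coding genes and the 2 rRNA genes contributed differently to these shares. Protein-coding genes held 5.05% to 5.27% of all counts in the 4 IL-7 libraries, the narrowest range of any treatment, 2.83% to 4.21% with IL-33, 4.53% to 5.90% with CGRP and 2.33% to 3.76% with NMU. The rRNA genes held 3.43% to 4.89% with IL-7, 3.77% to 6.73% with CGRP and 0.984% to 1.88% with NMU. With IL-33 their shares were 1.70% and 1.10% in the libraries numbered 1 but 3.74% and 3.75% in those numbered 2, so the rRNA share of IL-33 overlapped that of IL-7, while the protein-coding share did not. The ratio of rRNA to protein-coding counts was 0.652 to 0.932 with IL-7, 0.831 to 1.14 with CGRP, 0.422 to 0.551 with NMU and 0.389 to 1.32 with IL-33. It lay below all IL-7 and CGRP libraries in all 4 NMU libraries.

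Fold changes of single genes were computed from the counts after TMM scaling, on all genes that passed a filter on low counts, and a gene was called at a fold change above 1.5 and an adjusted P value under 0.05 in edgeR's quasi-likelihood test. In the comparison of IL-33 with IL-7, all 16 detected genes were tested, and none was called. Of all 10759 genes tested, 7 (0.0651%) were called. All 16 estimates were below 0, with a median log2 fold change of -0.84 beside 0.08 over all genes tested. DESeq2 called 6 of the 16, all lower with IL-33, against 1.95% of all genes in that direction. The 4 genes mt-Cytb, mt-Co1, mt-Nd4 and mt-Nd5 were lower in CPM in every IL-33 library than in every IL-7 library, as were 2.16% of the 11821 genes whose mean level reached 1 CPM.

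Among these 4 genes mt-Cytb had the largest estimate. Its level was 17975 and 18777 CPM in the WT and 20458 and 18844 CPM in the Pac1-/- IL-7 libraries. With IL-33 it was 10602 and 13789 CPM in WT and 9413 and 6855 CPM in Pac1-/-. The groups did not overlap, and the lowest value belonged to IL-33 Pac1-/- replicate 2. Its log2 fold change was -1.11 ± 0.238 (SE) at an adjusted P value of 0.223 in edgeR. mt-Nd5, a complex I subunit, had 2169, 2317, 2416 and 2052 CPM with IL-7 and 1280, 1620, 1272 and 1464 CPM with IL-33, WT libraries first. Its log2 fold change of -0.86 ± 0.166 had the smallest adjusted P value of the detected genes in this comparison, 0.184 in edgeR. mt-Co1 (-0.82), mt-Nd1 (-0.72) and mt-Nd4 (-0.69) had log2 fold changes of similar size, with adjusted P values of 0.303 to 0.312 in edgeR. The rRNA genes mt-Rnr1 and mt-Rnr2 had log2 fold changes of -0.78 and -0.82. Their levels with IL-33 were 3792 and 13185 CPM in WT replicate 1, 2429 and 8576 in Pac1-/- replicate 1, but 9696 and 27678 in WT replicate 2 and 12349 and 25116 in Pac1-/- replicate 2. Without both IL-33 libraries numbered 2, a choice made after seeing the data, 7 of the 16 detected genes were called lower, beside 21 of all 12204 genes tested (0.172%), where the fit of all libraries called 7 genes lower in all. The libraries left out held the higher mitochondrial share with IL-33 in each genotype. Their removal therefore bears on the values tested, and these calls are not an independent test.

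CGRP was compared with IL-33 to see how the neuropeptide changed stimulated cells. mt-Co1 and mt-Nd5 rose, and they were the only detected genes called, 2 of the 15 that passed the filter (mt-Nd4l did not). Of all 10647 genes tested, 222 (2.09%) were called higher, and 264 (2.48%) in either direction. All 15 estimates were above 0, with a median log2 fold change of 1.09 beside -0.10 over all genes tested. DESeq2 called 8 of the 15, all higher, against 5.71% of all genes in that direction. In CPM, mt-Cytb, mt-Co1, mt-Nd5, mt-Rnr2 and mt-Atp8 were higher in every CGRP library than in every IL-33 library, as were 5.02% of the 11821 genes.

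mt-Co1 had 16886 and 17968 CPM in the WT and 15413 and 17745 CPM in the Pac1-/- CGRP libraries. With IL-33 it had 8750 and 11246 CPM in WT and 7948 and 6204 CPM in Pac1-/-, so the groups lay well apart. All 4 CGRP values also exceeded the 12536 to 13503 CPM of the IL-7 libraries. Compared with IL-33, mt-Co1 had a log2 fold change of 1.29 ± 0.211 (SE) at an adjusted P value of 0.0202 in edgeR. mt-Nd5 had 2322 and 2182 CPM in WT and 1951 and 2468 CPM in Pac1-/- with CGRP, all above the IL-33 values given before and within or close to the IL-7 values. Its log2 fold change of 0.95 ± 0.174 passed the test at an adjusted P value of 0.0307 in edgeR. mt-Cytb had 20069 and 17061 CPM in WT and 14124 and 19676 CPM in Pac1-/- with CGRP. Its log2 fold change of 1.11 ± 0.242 had an adjusted P value of 0.0530 in edgeR, just outside the threshold.

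The rRNA genes had larger estimates with a wider spread. mt-Rnr2 had 41807 and 41575 CPM in WT and 28341 and 50027 CPM in Pac1-/- with CGRP. These values were above those of all IL-33 libraries, although CGRP Pac1-/- replicate 1 only narrowly exceeded the 27678 CPM of IL-33 WT replicate 2. The log2 fold change was 1.42 ± 0.379 for mt-Rnr2 and 1.30 ± 0.484 for mt-Rnr1, with adjusted P values of 0.107 and 0.251 in edgeR. Among the others, log2 fold changes were 0.69 for mt-Nd1, 0.88 for mt-Nd4, 1.38 for mt-Atp6, 1.09 for mt-Tp and 2.03 for mt-Atp8, the last from 5 to 33 counts per library. Leaving out 1 of the 8 libraries left mt-Co1 with a log2 fold change of 1.13 to 1.43 and mt-Nd5 with 0.81 to 1.04. No mitochondrial gene was called without WT or Pac1-/- IL-33 replicate 1 or without any 1 of the 4 CGRP libraries, 1 was called without IL-33 Pac1-/- replicate 2 (beside 1.16% of all genes called higher) and 5 without IL-33 WT replicate 2 (beside 1.63%). The adjusted P value ranged over these fits from 0.0151 to 0.0830 for mt-Co1 and from 0.0224 to 0.124 for mt-Nd5 in edgeR.

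**Figure D3:**
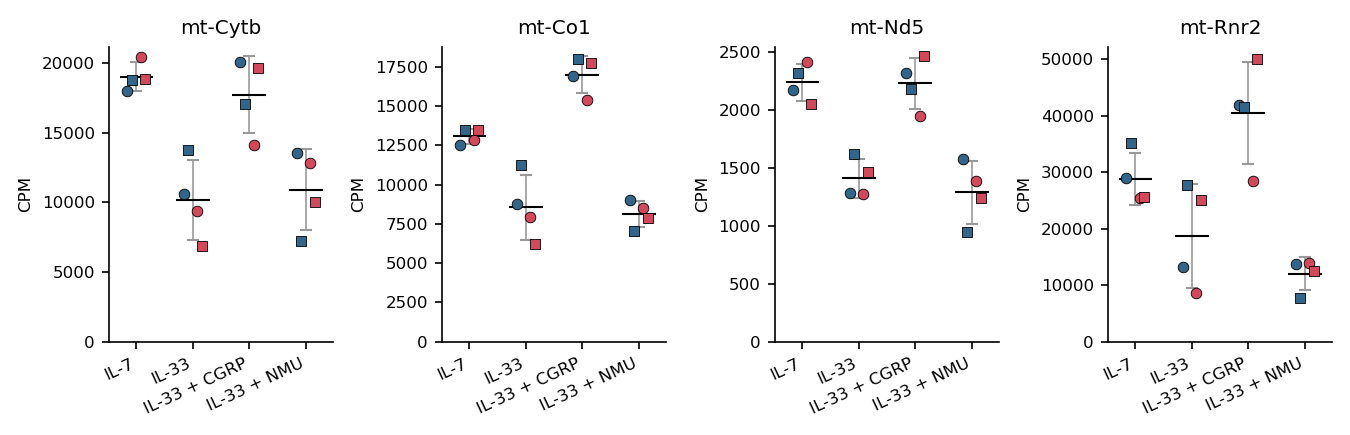
Level (CPM) of mt-Cytb, mt-Co1, mt-Nd5 and mt-Rnr2 in each of the 16 libraries, by treatment. Colours and symbols are as in the plot of shares, with WT in blue and Pac1-/- in red, circles for replicate 1 and squares for replicate 2, black lines for means and grey bars for 1 SD over 4 libraries. mt-Co1 with CGRP (15413 to 17968 CPM) lies above all other treatments.

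In the comparison of NMU with IL-33, edgeR called none of the 15 genes tested, and DESeq2 called none, beside 1.4% of all genes. Of all 10594 genes tested, edgeR called 11 (0.104%). Of the 15 estimates, 11 were above 0 and 4 below, with a median log2 fold change of 0.11 beside -0.05 over all genes. The rRNA genes were among the 4 below 0, at -0.77 ± 0.504 for mt-Rnr1 and -0.46 ± 0.423 for mt-Rnr2. mt-Rnr2 had 13755 and 7752 CPM in WT and 13925 and 12542 CPM in Pac1-/- with NMU, close to the IL-33 libraries numbered 1 and below those numbered 2. mt-Cytb had 13549, 7208, 12853 and 10016 CPM, WT libraries first, and a log2 fold change of 0.29 ± 0.356. With the total count as the scale in place of TMM, the median of the 15 genes turned to -0.05. That scale also moved the median of all genes from 0.08 to 0.27 in the IL-33, from -0.10 to -0.38 in the CGRP and from -0.05 to -0.20 in the NMU comparison, and the detected genes kept their distance from it, with medians of -0.65, 0.82 and -0.05.

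**Figure D4:**
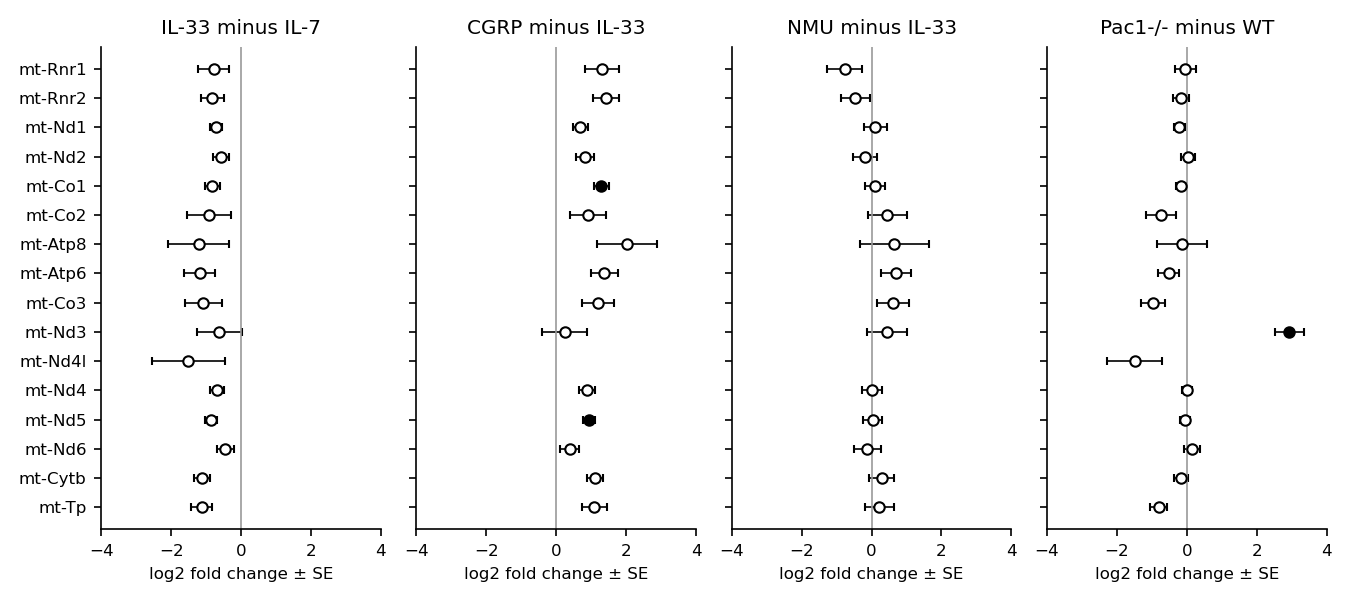
Log2 fold change with its SE for the 16 detected genes, in genome order, in the 4 comparisons pooled over genotypes or treatments (edgeR after TMM scaling). Filled points were called at a fold change above 1.5 and an adjusted P value under 0.05. All points lie below 0 for IL-33 and above 0 for CGRP, and mt-Nd3 stands alone for Pac1-/- against WT.

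Pac1-/- and WT libraries differed in the counts assigned to mt-Nd3. These were higher in Pac1-/-, and mt-Nd3 was the only 1 of the 16 detected genes called, when 12 of 14979 genes (0.0801%) were called in all and 7 (0.0467%) higher. It had 19 and 55 counts in the WT libraries with IL-7, 17 and 35 with IL-33, 30 and 19 with CGRP and 12 and 38 with NMU. In the Pac1-/- libraries it had 344 and 310 counts with IL-7, 311 and 159 with IL-33, 210 and 147 with CGRP and 230 and 241 with NMU. A single base separates it from Gm28438 in the reference, so from these counts more mt-Nd3 RNA cannot be told apart from reads of the same RNA assigned to the other place. All 8 Pac1-/- libraries lay above all 8 WT libraries, as was so for 0.0761% of the 11821 genes. Its log2 fold change of 2.93 ± 0.417 (SE) passed the test at an adjusted P value of 0.00567 in edgeR, the eighth smallest of all genes by rank, and DESeq2 called it too, beside 0.247% of all genes in that direction. Within single treatments it was 3.11 with IL-7, 2.69 with IL-33, 3.06 with CGRP and 2.83 with NMU. No mitochondrial gene was called in these fits of 4 libraries each, by edgeR or by DESeq2. Over all genes, edgeR called 0.00916%, 0.00874%, 0.0% and 0.0282% in the same order, and DESeq2 0.715%, 0.568%, 1.86% and 0.621%.

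Gm28438, the nuclear copy of mt-Nd3 shown above, moved the opposite way. It had 693 and 413 counts in the WT libraries with IL-7, 255 and 314 with IL-33, 357 and 234 with CGRP and 194 and 177 with NMU, and 8 to 22 counts in all 8 Pac1-/- libraries. Its log2 fold change of -4.48 ± 0.361 passed the test at an adjusted P value of 7.11e-06 in edgeR, the third smallest of all genes. Of the counts of both, mt-Nd3 took 2.67% to 17.7% in WT and 87.8% to 96.8% in Pac1-/- libraries. Summed, mt-Nd3 and Gm28438 had 44.6 and 41.9 CPM in WT and 30.0 and 25.4 CPM in Pac1-/- with IL-7, 31.3 and 25.9 against 21.7 and 19.1 CPM with CGRP, and 30.5 and 27.5 against 21.1 and 22.7 CPM with NMU. With IL-33 the sums were 21.4 and 34.2 CPM in WT and 21.5 and 18.7 CPM in Pac1-/-. The sum was thus lower in both Pac1-/- libraries than in both WT libraries with IL-7, CGRP and NMU, and the genotypes overlapped with IL-33. When each mitochondrial gene was summed with its nearest copy before the fit, a choice made after seeing the data, the mt-Nd3 pair had a log2 fold change of -0.54 ± 0.223 in edgeR (unadjusted P = 0.0269, adjusted P = 0.805), and no mitochondrial gene was called, beside 0.0668% of all genes. The counts of the 2 places thus moved in opposite directions between the genotypes, while their sum, lower in Pac1-/-, did not pass the adjusted threshold. Whether both genotypes carry the reference base at position 3, and the part of read assignment in this difference, were not tested.

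No other mitochondrial gene was called between the genotypes. Of the 16 log2 fold changes, 12 were below 0, and the median was -0.16 beside 0.03 over all genes. The abundant genes had estimates near 0, with -0.17 ± 0.141 for mt-Co1, -0.16 ± 0.189 for mt-Cytb and -0.16 ± 0.234 for mt-Rnr2 (adjusted P values of 0.973, 1 and 1 in edgeR). The genotypes overlapped in the other 4 pairs with a nearly identical copy of almost the whole gene. mt-Atp6 took 8.27% to 41.6% of its pair in WT and 3.36% to 47.5% in Pac1-/-, mt-Co2 38.0% to 64.8% of its pair in WT and 43.0% to 56.5% in Pac1-/-, mt-Co3 14% to 55.2% and 24.1% to 62.0%, and mt-Nd4l 25% to 65.5% and 27.6% to 66.7%. mt-Co1, mt-Nd2, mt-Nd4 and mt-Nd5 held at least 97.7% of their pairs in all libraries. Of these, mt-Nd2 held 99.6% to 99.7% in Pac1-/- and 99.7% to 99.8% in WT libraries. Its copy Gm13339 had 18 to 166 counts and was not called (log2 fold change 0.85 ± 0.414, adjusted P = 0.803 in edgeR). The response to each agent was also compared between the genotypes through the interaction term. No mitochondrial gene was called for IL-33, CGRP or NMU (edgeR, 0 of 16 each, with 1, 0 and 0 at an unadjusted P value under 0.05; DESeq2, 0 each), and edgeR called no gene among all those tested (0.0% of 12980, 13160 and 12567, beside 0.493%, 0.859% and 0.294% in DESeq2; edgeR gave 734, 719 and 801 genes an unadjusted P value under 0.05). The median interaction of the 16 genes was -0.35, 0.46 and 0.48 on the log2 scale beside 0.06, 0.05 and -0.19 over all genes.

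Of the counts assigned to mitochondrial protein-coding genes, the same genes held the most throughout. Reads that match nuclear copies may be split or left uncounted, so a low part need not mean a rare mRNA. mt-Cytb held a median of 33.8% of the protein-coding mitochondrial counts over the 16 libraries, mt-Co1 26.6%, mt-Nd1 18.9%, mt-Nd4 6.93%, mt-Nd2 6.50% and mt-Nd5 4.19%. The coefficient of variation of these parts was 7.55% for mt-Nd5, 10% for mt-Cytb, 10.3% for mt-Nd1 and 12.3% for mt-Co1, but 72.3% to 157% for mt-Atp6, mt-Co3, mt-Nd3, mt-Co2 and mt-Nd4l, the genes with nearly identical copies over almost their whole length. mt-Co1 made up a mean of 31.6% of the protein-coding counts with CGRP against 25.3% to 26.2% with the other treatments, and mt-Nd1 16% against 18.2% to 20.1%. For mt-Co1 single libraries overlapped, with NMU WT replicate 2 above CGRP WT replicate 1. mt-Nd6, a complex I subunit and the only protein-coding gene on the minus strand, had 0.222 to 0.410 counts per count of its plus-strand neighbour mt-Nd5 in 15 libraries and 0.654 in IL-33 Pac1-/- replicate 2. That library also had the lowest share of mt-Cytb (24.2%) and the highest of mt-Nd2 (12.9%) among its protein-coding counts. Since the use of strand in counting is not given, counts of mt-Nd6 may include plus-strand RNA over the same bases.

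Nuclear genes that serve the mitochondrial genome were described through lists of known function. A list of 48 symbols held factors of mitochondrial DNA maintenance, transcription and RNA processing, with regulators of nuclear genes such as Nrf1 and Esrra. Of these symbols, 46 were in the table and 42 to 44 were tested in each pooled comparison. With IL-33, none was called and the median log2 fold change was 0.13. With CGRP, 1 was called higher, Polg2 (2.20 ± 0.446, adjusted P = 0.0404 in edgeR), the accessory subunit of the mitochondrial DNA polymerase. This is 2.38% of the 42 genes tested, close to the 2.09% of all genes called higher, while 31 of the 42 estimates were below 0 and the median was -0.59. Tfam, which packages mitochondrial DNA and starts its transcription, had log2 fold changes of -0.31 ± 0.238 with IL-33, -0.50 ± 0.30 with CGRP, 0.49 ± 0.282 with NMU and -0.30 ± 0.197 in Pac1-/-. Lrpprc, which stabilises mitochondrial mRNAs, had 0.48, -0.78, 0.44 and 0.39, and Polrmt, the mitochondrial RNA polymerase, -0.28, -2.32, -0.47 and 0.67 with an SE of at least 1.33. None of these 3 passed the test in any pooled comparison, and Slirp, the partner of Lrpprc, had at most 2 counts in a library.

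Of the 78 genes for mitochondrial ribosomal proteins, 77 were tested in each pooled comparison and none was called. Their median log2 fold change was -0.02 with IL-33, -0.44 with CGRP, 0.25 with NMU and -0.06 in Pac1-/-. Of the 91 nuclear genes of the respiratory chain and ATP synthase, 85 or 86 were tested. Uqcrq, a subunit of complex III, fell with IL-33 (-1.50 ± 0.200, adjusted P = 0.0472), and Cox7a2l, which joins respiratory complexes, rose with CGRP (1.60 ± 0.276, adjusted P = 0.0240, both in edgeR). Each is 1 gene of its list, 1.16% of those tested with IL-33 beside 0.0651% of all genes called, and 1.18% with CGRP beside 2.09% of all genes called higher. The medians of this list were -0.55, -0.08, 0.11 and -0.06 in the same order, with 67 of 86 estimates below 0 with IL-33. Of 15 genes of mitochondrial stress and cell death, none was called in any pooled comparison, and the medians were 0.02, -0.36, 0.00 and -0.09. The 10 nuclear copies tested all had estimates below 0 with IL-33 (median -0.86) and above 0 with CGRP (median 1.17), and Gm10925, the copy of mt-Atp6, was the only 1 of them called with CGRP, higher (2.85 ± 0.565, adjusted P = 0.0378 in edgeR), beside the 2.09% of all genes. Of the 11 copies found, 7 are over 99% identical to mitochondrial sequence. Their counts may include mitochondrial reads, which was not tested.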

How the data were processed

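Lung ILC2s were sorted into lysis buffer (about 500 cells per library), and full-length mRNA amplification and paired-end sequencing were performed. The authors aligned the reads to mm10 with HISAT2, and deposited a table of counts, that is, the whole number of reads on each Ensembl gene in each library, not normalized. The counting tool, the use of strand and the treatment of multimapping and duplicate reads are not given in the sources used here, so counts of near-identical and overlapping genes are uncertain. Symbols, positions and transcript sequences came from GENCODE M21 (GRCm38), in which 51633 of the 51912 identifiers had a symbol. All 16 columns carried labels that gave their genotype, treatment and number.

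Counts were tested in R 4.3.3 with edgeR 4.0.16 (TMM scaling, filterByExpr, quasi-likelihood test, Benjamini-Hochberg adjustment over all genes tested) on the libraries of each of 11 comparisons. The cutoff was the one the authors applied to their own DESeq2 results, a fold change above 1.5 and an adjusted P value under 0.05. Genotype, or treatment, was an additive term in pooled comparisons. edgeR's test gives no SE, so the SE of a log2 fold change was taken as its absolute value divided by the square root of the F statistic. Shares were compared with exact permutation tests, and correlations with 100000 resamples (scipy 1.17.1). Nuclear copies were searched with BLAST 2.17.0. The fit was tested on simulated data with 200 changed genes. Alternatives were RLE and total-count scaling, mitochondrial genes left out of the scaling, DESeq2 1.42.0, a call by adjusted P value alone, a fit without the filter or with a stricter one (10 counts or more in all libraries), a block for the replicate number, a single fit of all 16 libraries, other definitions of the share, and leaving out each library. The summing of copies, the rRNA share, the protein-coding share without the 6 low genes, and leaving out both IL-33 libraries numbered 2 were added after the data were seen.

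All 13 protein-coding and both rRNA genes are named, each tRNA gene with a mean of at least 10 counts, and from the lists of nuclear genes Tfam, Polrmt, Lrpprc, Slirp and every member called. The most abundant nuclear copies are named, and the other copies as pairs of their genes. The members and lists were chosen with earlier results of these data known. The levels of 1 marker list by treatment are not reported here.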

Additional observations from a re-analysis of the deposited data

Results flagged for a closer look

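Of 68 groups of 4 libraries, 8 held a library whose gap to the nearest other library exceeded Dixon's 95% critical value of 0.829 of the range, where chance gives about 1 in 20. WT replicate 2 with NMU stood apart, high, in mt-Co2 (221 CPM, others 36.7 to 55.0), mt-Co3 (197 CPM, others 48.5 to 57.6), mt-Atp6 (191 CPM, others 45.4 to 65.9) and mt-Nd4l (7.28 CPM, others 0.591 to 0.773). WT replicate 2 with IL-33 stood apart in mt-Co3 (136 CPM, others 31.5 to 42.4) and mt-Atp6 (102 CPM, others 37.3 to 46.4), and WT replicate 2 with IL-7 in mt-Nd4l (6.18 CPM, others 0.877 to 1.56). These 7 values all belong to WT libraries numbered 2 and to genes with nearly identical nuclear copies, and the part of read assignment in them was not tested. Pac1-/- replicate 1 with CGRP stood apart, low, in mt-Nd1 (7133 CPM, others 9077 to 9257). Of 51 responses compared between the genotypes, none had all libraries of the genotypes moving in opposite directions.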

How the results depend on the processing

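The share difference between IL-33 and IL-7 was -1.37 percentage points for the rRNA genes only (exact permutation P = 0.229), and with the replicate number as a block it kept its size of -3.29 (P = 0.125, the smallest possible), as the CGRP difference kept 5.04 (P = 0.125). Leaving out 1 library gave -4 to -2.66 and 4.41 to 5.90 percentage points. Mitochondrial genes called in the IL-33 comparison numbered 6 with DESeq2, 8 without a filter and 7 without both IL-33 libraries numbered 2, against none in edgeR as reported, while the share of all genes called lower was 1.95%, 0.445% and 0.172%, against 0.0651%. In the CGRP comparison they numbered 1 with total-count scaling (1.25% of all genes called higher), 8 with DESeq2 (5.71%), 9 without a filter (1.49%), 6 with at least 10 counts in every library (5.35%), 4 with all 16 libraries in 1 fit (1.65%), 5 without both IL-33 libraries numbered 2 (1.1%), and 0 to 5 when 1 library was left out (0.535% to 1.63%), against 2 as reported (2.09%). The fits without both IL-33 libraries numbered 2 were chosen with their mitochondrial values known, so these counts are not an independent test. With copies summed, 0 mitochondrial genes were called between the genotypes, and mt-Nd3 turned to -0.54. The correlation of the protein-coding share with the total count was 0.0884, in place of -0.0204 for all 37 genes. With the number of genes detected it was -0.216, in place of -0.0815, and within treatments -0.643, in place of -0.437. Without both IL-33 libraries numbered 2, the log2 fold changes turned to 0.38 for mt-Rnr1 and 0.29 for mt-Rnr2 with NMU and to 0.02 for mt-Cytb in Pac1-/-, and without 1 library mt-Rnr2 ranged from -0.29 to 0.01 in Pac1-/-. The cause of these changes was not tested.

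Replicate numbers 1 and 2 are shared by all groups, and over all genes the deviations of libraries with the same number had 28 correlations of -0.06 to 0.04, none over 0.1, so the numbers were not treated as pairs. Among the detected genes, mt-Co2 was higher in CPM, and took more of its pair, in the library numbered 2 in 8 of 8 groups. How many of all genes did so was not counted. The block gave 3 mitochondrial calls in the CGRP comparison, beside 1.77% of all genes called, and changed no other count of mitochondrial genes called. Over all genes it lowered the calls from 264 to 188 with CGRP and from 7 to 2 with IL-33. With 4 libraries against 4, an exact test of a share cannot fall below P = 0.0286, which limits what can pass an adjusted threshold, and in fits of 2 against 2 a missed call does not show that the genotypes were alike.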
